A study of Mus musculus with 8 samples.

Results

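The regions described are open chromatin sites away from gene ends that had nearly the same accessibility in every group of the study. A region was taken when its midpoint lay more than 5 kb from both ends of every protein-coding gene of the mm10 assembly, when each of the 4 group means was at least 100 normalized reads, and when the highest group mean was at most 1.3 times the lowest. Of 168842 regions, 129379 were that far from gene ends, 7778 of these reached 100 in every group, and 1473 met all conditions. These 1473 even distal regions are 0.872% of all regions and 18.9% of the distal regions that reached 100. The evenness was chosen from the measured values, so it is a description and not a finding.

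The cells were sorted on day 4 from mouse embryoid bodies, which are balls of embryonic stem cells that differentiate in suspension, and each library was made by ATAC-seq, in which the Tn5 transposase cuts open DNA and adds adapters. Each group has 2 libraries. WT DP is wild-type cells of the A2lox.Cre line that carry both PDGFRalpha and FLK1, and WT SP is cells of the same line with FLK1 but without PDGFRalpha. KO DP is cells with both receptors from an Etv2 knockout line. OE SP is cells with FLK1 alone from the iETV2 line, given 2 µg/ml doxycycline from day 2.5 to switch Etv2 on. Line, genotype and doxycycline go together, so their parts in any KO or OE difference cannot be told apart. Whether the libraries within a group stem from separate cultures is not in the labels. The p-values thus cover the spread among these samples alone, and that spread may be technical.

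Distal open regions include enhancers, sites bound by the architectural protein CTCF, and promoters of alternative or noncoding transcripts. Enhancers are often open in few cell types, whereas many CTCF sites and promoters of broadly used genes are open in many. CTCF holds cohesin, the ring complex that extrudes chromatin loops, at the base of those loops. Etv2 is an ETS transcription factor needed for vessel and blood development.

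As a check of the labels, the region at Etv2 with the highest values, chr7:30634628-30635028, held 0.840 and 0 normalized reads in the KO DP libraries, 563 and 611 in those of WT DP, 475 and 493 in those of WT SP, and 425 and 645 in those of OE SP. For the sort markers the region with the highest mean is given with others. At Kdr, the gene of FLK1, chr5:75978321-75978721 held 356 and 362 in the WT DP libraries, 467 and 479.8 in those of WT SP, 356 and 333 in those of KO DP, and 380.1 and 519 in those of OE SP. Other regions at Kdr differed strongly, such as chr5:75962170-75962570, with 14.6 and 8.98 in the WT DP libraries, 175 and 169.5 in those of WT SP, 24.3 and 7.13 in those of KO DP, and 576 and 969.6 in those of OE SP, and chr5:75954181-75954581, with 393 and 377 in the WT DP libraries, 63.1 and 87.2 in those of WT SP, 460.1 and 376 in those of KO DP, and 15.3 and 18.4 in those of OE SP. At Pdgfra, chr5:75155806-75156206 held 239 and 234 in the WT DP libraries, 284 and 272 in those of WT SP, 241 and 219 in those of KO DP, and 220.3 and 348 in those of OE SP, while chr5:75154878-75155278 held 199 and 233 in the WT DP libraries, 168 and 159.6 in those of WT SP, 269 and 215 in those of KO DP, and 85.3 and 57.8 in those of OE SP. Accessibility at Pdgfra thus did not follow the sort in 1 direction. Recovered reads in regions ran from 12477601 to 18853733 per library. The even distal regions held 2.78% to 3.05% of them, with a median of 145 to 236 reads per region and a lowest count of 61. A value is an average over 50000 sorted cells, so openness in fewer cells and less openness per cell cannot be told apart. Reads carry no molecular identifiers, so counting error is a lower limit of the error.

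Starts of transcription lay inside 182 of the 1473 even distal regions (12.4%), 131 of them protein-coding starts and 51 only lncRNA starts, and the other 1291 held none. The rule measures distance to the outer ends of a gene, and a gene can have further starts within its span. The RefSeq promoter table of GRCm38.p6, 1 window of 300 bases per listed start, gave 206 windows with their start inside these regions, from 130 protein-coding and 62 lncRNA genes. Among the 8 even distal regions with the highest mean, 4 held such a start. Their 250 bases before the start follow, 5′ to 3′ on the strand of the gene, with the starts inside the most open regions at noncoding genes (Mir22hg, D130051D11Rik, Por with Gm40345, and 5430416N02Rik) and inside the region at Stag1, a cohesin gene. They are shown as the starts held by the most open regions of these kinds. Capitals mark matches on either strand to the motifs searched. The CCAAT box, searched by these 5 letters, and the GC box, searched as GGGCGG, were added to the search after the sequences had been seen.
Sp2, chr11:96977689-96977938, minus strand: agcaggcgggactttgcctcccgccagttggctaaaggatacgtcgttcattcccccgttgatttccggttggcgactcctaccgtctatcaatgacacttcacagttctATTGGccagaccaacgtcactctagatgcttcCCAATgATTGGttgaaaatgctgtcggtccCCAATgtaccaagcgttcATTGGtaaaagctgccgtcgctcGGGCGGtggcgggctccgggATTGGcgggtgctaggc
Kctd7, chr5:130144633-130144882, plus strand: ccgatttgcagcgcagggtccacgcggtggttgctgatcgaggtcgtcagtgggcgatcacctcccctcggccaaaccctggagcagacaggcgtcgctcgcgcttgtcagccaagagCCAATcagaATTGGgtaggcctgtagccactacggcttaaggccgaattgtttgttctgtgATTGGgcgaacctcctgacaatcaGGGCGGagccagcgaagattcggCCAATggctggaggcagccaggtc
Rps6ka2, chr17:7169865-7170114, plus strand: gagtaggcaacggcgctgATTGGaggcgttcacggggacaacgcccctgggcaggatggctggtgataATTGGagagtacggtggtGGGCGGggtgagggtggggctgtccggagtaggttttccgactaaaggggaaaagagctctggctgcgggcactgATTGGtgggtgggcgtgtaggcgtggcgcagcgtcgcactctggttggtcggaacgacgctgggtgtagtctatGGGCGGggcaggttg
Dcun1d4, chr5:73490776-73491025, plus strand: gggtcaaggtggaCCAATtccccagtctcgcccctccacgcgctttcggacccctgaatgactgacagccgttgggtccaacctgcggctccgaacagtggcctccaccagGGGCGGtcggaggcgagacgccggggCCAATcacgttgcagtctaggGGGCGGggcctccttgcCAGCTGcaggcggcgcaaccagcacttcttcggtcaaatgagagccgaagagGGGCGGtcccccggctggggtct
Mir22hg, chr11:75461289-75461538, plus strand: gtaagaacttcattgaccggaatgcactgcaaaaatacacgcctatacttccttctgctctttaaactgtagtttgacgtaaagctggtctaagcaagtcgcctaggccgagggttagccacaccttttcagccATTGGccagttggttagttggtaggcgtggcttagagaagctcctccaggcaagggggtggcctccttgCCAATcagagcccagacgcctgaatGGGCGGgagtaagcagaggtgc
D130051D11Rik, chr15:85634346-85634595, plus strand: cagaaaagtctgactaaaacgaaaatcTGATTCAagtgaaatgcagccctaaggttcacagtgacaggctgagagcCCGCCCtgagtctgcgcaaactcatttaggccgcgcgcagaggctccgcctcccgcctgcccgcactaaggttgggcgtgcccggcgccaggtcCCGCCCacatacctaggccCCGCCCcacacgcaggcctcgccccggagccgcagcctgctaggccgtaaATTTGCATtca
Por, chr5:135688895-135689144, plus strand: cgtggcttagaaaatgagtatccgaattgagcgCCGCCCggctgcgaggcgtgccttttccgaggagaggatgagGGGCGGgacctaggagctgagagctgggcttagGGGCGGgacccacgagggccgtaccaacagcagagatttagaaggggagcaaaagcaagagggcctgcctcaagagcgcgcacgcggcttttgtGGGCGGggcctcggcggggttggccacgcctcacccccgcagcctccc
Gm40345, chr5:135689052-135689301, minus strand: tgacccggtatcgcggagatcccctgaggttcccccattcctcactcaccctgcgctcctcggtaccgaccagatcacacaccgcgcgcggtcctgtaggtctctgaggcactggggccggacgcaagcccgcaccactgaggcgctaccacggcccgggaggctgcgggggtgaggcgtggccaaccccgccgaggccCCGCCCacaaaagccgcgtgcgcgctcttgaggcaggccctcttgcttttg
5430416N02Rik, chr5:100429536-100429785, minus strand: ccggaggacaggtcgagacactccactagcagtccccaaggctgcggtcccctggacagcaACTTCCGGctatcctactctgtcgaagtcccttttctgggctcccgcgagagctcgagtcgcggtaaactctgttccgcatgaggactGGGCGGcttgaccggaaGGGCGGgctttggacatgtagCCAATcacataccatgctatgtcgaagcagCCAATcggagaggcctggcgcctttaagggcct
Stag1, chr9:100643198-100643447, plus strand: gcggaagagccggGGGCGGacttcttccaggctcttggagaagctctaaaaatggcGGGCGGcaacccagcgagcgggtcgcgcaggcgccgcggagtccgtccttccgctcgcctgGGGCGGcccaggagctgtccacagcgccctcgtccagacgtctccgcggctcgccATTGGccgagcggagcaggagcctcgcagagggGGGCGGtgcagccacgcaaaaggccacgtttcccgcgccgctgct

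Each of these 10 stretches held a GC box, and 7 held a CCAAT box, which was not found in those of D130051D11Rik, Por and Gm40345. Both boxes were chosen after these stretches had been seen, so their presence there is no support. Over all 206 windows, which include those of the 10 stretches, a CCAAT box was found in 37.4%, as in 37.4% of all 32851 promoter windows. A GC box was found in 65% against 35.7%, without a match for C+G. Windows of varying distal regions, the 6305 distal regions that reached 100 but exceeded the ratio of 1.3, had these boxes in 34.5% and 57.4%. Windows of even gene-end regions, the 3115 regions within 1 kb of a protein-coding gene end that met the same floor and ratio, had them in 50.4% and 74.4%. By the mean of the region, a CCAAT box was in 25% of 32 windows in regions with a mean of 100 to 200, in 21.3% of 75 windows at 200 to 500, in 50.0% of 66 at 500 to 1000 and in 60.6% of 33 at 1000 or more. The 10 stretches that led to the choice of this box all lie in regions of that highest class, so its share there is no support. Shares by level were not computed for the other sets, so the rise is not shown to be particular to even distal regions. The median window had 61.2% C+G and 5.83 CpG per 100 bases, against 60.0% and 5.33 at varying distal regions, 62.0% and 7.33 at even gene-end regions and 52.7% and 2.33 over all windows. A match describes letters in a window and does not show that a factor binds there.

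The stretches around CTCF core matches are shown because CTCF sites are the best known class of sites open across cell types. The core, named without its letters because several of them vary, was searched on both strands. A match with up to 20 bases on each side is given for the 6 matches that lie in the bases before a start, with the core in capitals.
Scn2a, chr2:65668566-65668617, plus strand: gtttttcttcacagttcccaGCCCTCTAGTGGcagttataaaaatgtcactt
Dgkz, chr2:91963726-91963777, minus strand: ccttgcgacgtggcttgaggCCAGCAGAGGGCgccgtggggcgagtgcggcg
Dhx30, chr9:110101088-110101135, minus strand: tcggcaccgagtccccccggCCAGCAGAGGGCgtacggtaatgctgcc
Gm46218, chr10:29313514-29313565, minus strand: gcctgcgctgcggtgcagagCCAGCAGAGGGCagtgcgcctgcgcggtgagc
Rsad1, chr11:94549268-94549319, minus strand: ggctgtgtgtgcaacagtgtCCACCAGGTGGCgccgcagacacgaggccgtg
Gm41504, chr16:94713908-94713947, minus strand: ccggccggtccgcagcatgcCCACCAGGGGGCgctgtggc

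A CTCF core was found in 8 of the 206 windows (3.88%), against 0.557% of all promoter windows. Counted by region, 7 of the 182 even distal regions with a start had a match (3.85%). The share was 5 of 593 (0.843%) among varying distal regions. It was 26 of 2058 (1.26%) among even gene-end regions. With 1 mismatch allowed the shares were 12.1%, 7.59% and 7.87%. These are counts of few regions without a test, and the 1291 even distal regions without a start were not searched, since their sequence was not used here. In 6 of the 7 regions the match lay inside the region. The centre of the match was 3.5 bases from the region centre at Dgkz, 10.5 at Gm41504, 25.5 at Scn2a, 40.5 at Dhx30 and 45.5 at Rsad1, and the match at Gm46218 lay outside its region. The region at Dhx30, which encodes an RNA helicase, held 499.9 and 473 normalized reads in the pair of WT DP libraries, 515 and 525 in those of WT SP, 485 and 408 in those of KO DP, and 446 and 537 in those of OE SP. The lowest and highest libraries there differed 1.32-fold. As deposited, WT SP lay above WT DP, and the OE SP values overlapped with each of the other groups.

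Other motifs were counted in the same 206 windows, in the 664 windows of varying distal regions and in the 2452 of even gene-end regions, with no test. The ETS motif (CCGGAAGT) was in 5 windows (2.43%), against 3.92% at varying distal and 11.4% at even gene-end regions and 3.89% of all windows. NRF1 (GCGCATGC) was in 2 windows (0.971%), against 2.41%, 5.22% and 2.71% in that order. YY1 (AAGATGGCG) was in 2 windows (0.971%), against 1.05%, 4.85% and 1.40%. The motif of the blood and heart GATA factors, searched as the letters AGATAA, was in 5.83%, against 6.78%, 4.81% and 11.2%. The E-box CAGCTG was in 18.9%, against 19.3%, 12.6% and 16.3%. For YY1, GATA and the E-box the share was close to that of varying distal regions.

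The most open even distal region was chr19:61266775-61267175, which lay 38.5 kb from the span of Csf2ra, the gene of the GM-CSF receptor alpha chain. It held 3861 and 3557 normalized reads in the pair of WT DP libraries, 4339 and 4305 in those of WT SP, 4325 and 3918 in those of KO DP, and 4631 and 4470 in those of OE SP. Its mean of 4176 was also the highest of all regions tested.

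The region at an inner start of Sp2, a zinc finger factor of the Sp family, held 2193 and 2028 in the WT DP libraries, 2507 and 2336 in those of WT SP, 1927 and 1822 in those of KO DP, and 1851 and 2704 in those of OE SP. The region at Rps6ka2, a kinase of the RSK family, held 1858 and 1825 in the WT DP libraries, 2346 and 2186 in those of WT SP, 1912 and 1696 in those of KO DP, and 1889 and 2499 in those of OE SP. In both, as deposited, the WT SP libraries were above the WT DP libraries. OE SP replicate 2 was the highest of the 8 and OE SP replicate 1 was among the 4 lowest. Over the even distal regions as a set, the order of the groups changed with the scaling, as given below. The region at Stag1, a subunit of cohesin, held 1207 and 1168 in the WT DP libraries, 1477 and 1322 in those of WT SP, 1160 and 1029 in those of KO DP, and 1253 and 1482 in those of OE SP. Among noncoding genes the highest was Mir22hg, the host transcript of miR-22, with 1579 and 1500.0 in the WT DP libraries, 1797 and 1757 in those of WT SP, 1747 and 1467 in those of KO DP, and 1622 and 2226 in those of OE SP.

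Openness and the presence of a start went together. The mean over libraries had a median of 519 normalized reads in the 131 regions with a protein-coding start, 355 in the 51 with an lncRNA start and 176 in the 1291 without. Varying distal regions had the same order, with 346, 250 and 238, so it is not particular to even distal regions. A start was inside 12.4% of even distal regions, 9.41% of varying distal regions, 66.1% of even gene-end regions and 6.42% of all regions tested. A start lay in 3.84% of even distal regions with a mean of 100 to 200, 14.8% at 200 to 500, 32.2% at 500 to 1000 and 45.9% (28 of 61) at 1000 or more. Among all distal regions with a mean of 1000 or more, 21 of 31 with a protein-coding start were even (67.7%), 7 of 11 with an lncRNA start (63.6%) and 33 of 87 without a start (37.9%). At 100 to 200 the order was the other way, with 16.7%, 24.3% and 26.5%. Over all levels the shares were 24.7%, 20.8% and 18.4%. The plot of levels by start class shows the shift.

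**Figure D1:**
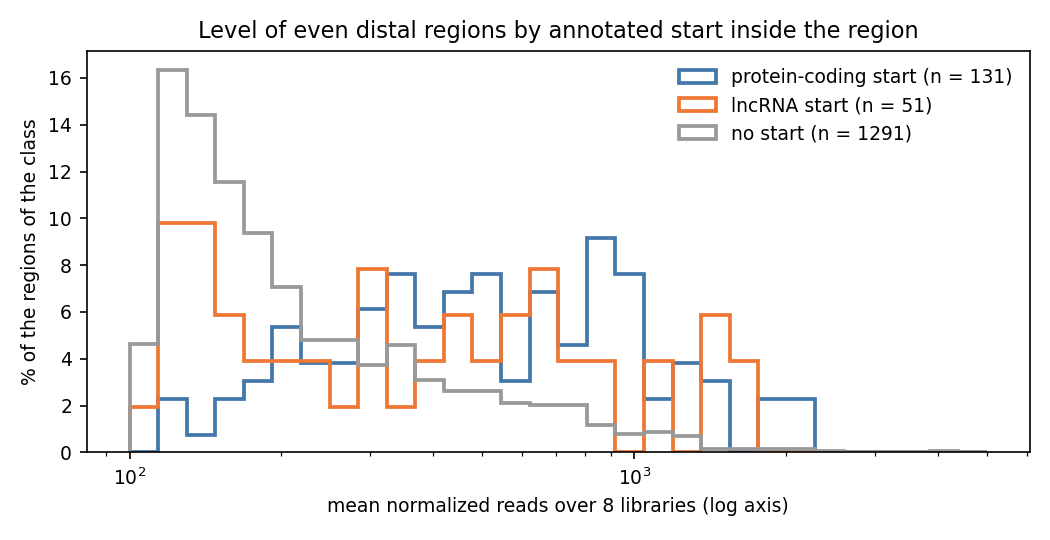
Distribution of the mean normalized reads over 8 libraries (log axis) of even distal regions, as the percentage of each class. Regions with a protein-coding start (131, median 519) lie to the right of those without a start (1291, median 176), which pile up just above the floor of 100.

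The median even distal region had a mean of 187 normalized reads, with quartiles of 139 and 354 and a range of 103 to 4176. Varying distal regions had a median of 244, even gene-end regions 560 and all 167573 regions tested 36.3. Gene bodies held 770 of the 1473 (52.3%), against 53.7% of varying distal regions. The median distance to a protein-coding gene end was 16.3 kb against 22.7 kb, and 97 (6.59%) lay over 100 kb away, against 11.1%. The furthest was chrX:15322486-15322886, at 1111 kb, with 182 and 195 in the WT DP libraries, 219 and 241 in those of WT SP, 216 and 202 in those of KO DP, and 183 and 231 in those of OE SP. The share of distal regions at the floor that were even ran from 14.9% on chromosomes 6 and 18 to 24.0% on chromosome 19 among the autosomes. On chromosome 4 between 85 and 105 Mb it was 1 of 54 (1.85%), against 107 of 553 (19.3%) on the rest of that chromosome. That interval was set beforehand, from earlier results of these data, as a block lower in the knockout line. Regions lower in KO DP by more than the ratio cannot be even, so the low share there follows from the choice.

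Group means hid differences between single libraries. Over the 8 libraries the highest value was a median of 1.42 times the lowest in even distal regions, with a range of 1.10 to 3.53. Only 202 (13.7%) stayed within 1.3 over all libraries, 1044 within 1.5, and 19 exceeded 2. Part of this was shared by the regions of a library. The median deviation from the region mean, on the log2(value + 5) scale, was -0.02 and -0.04 for the WT DP libraries, 0.11 and 0.06 for those of WT SP, 0.01 and -0.13 for those of KO DP, and -0.13 and 0.15 for those of OE SP. With each library's median removed, 643 (43.7%) stayed within 1.3.

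**Figure D2:**
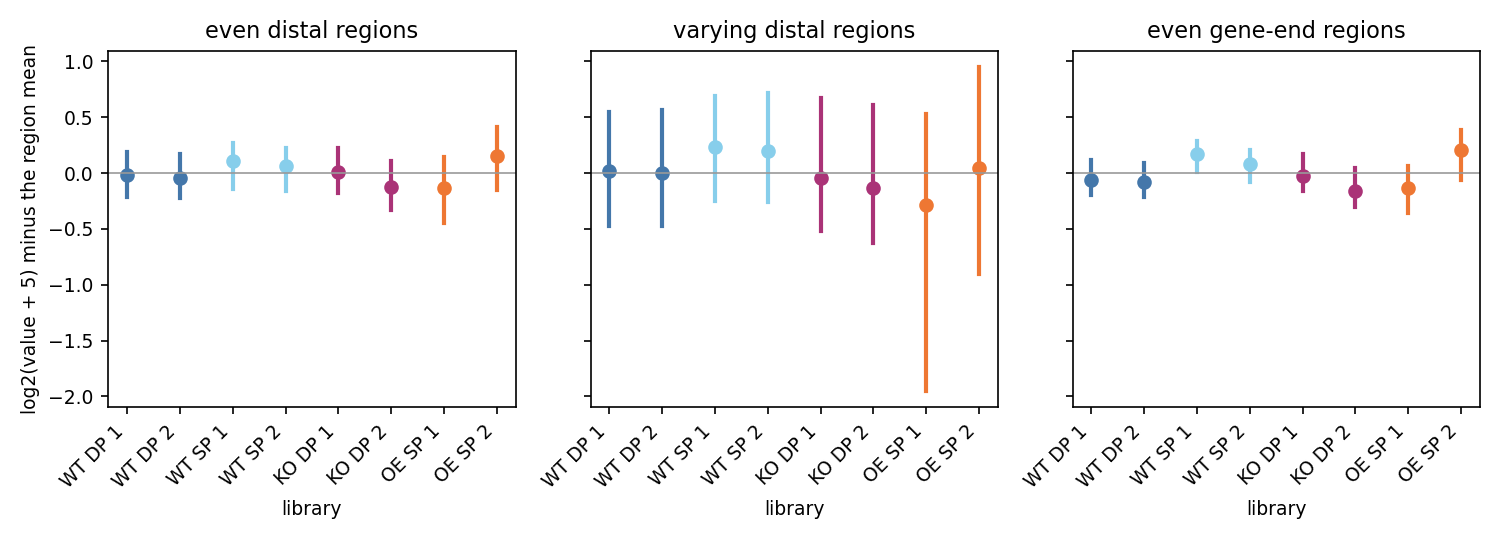
Deviation of log2(value + 5) from the mean of the region in each library, as the median (point) and the 5th to 95th percentile (line), for 3 sets of regions. Even distal regions spread less than varying distal regions, as their choice requires, and the OE SP libraries lie at -0.13 and 0.15.

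The steadiest region was chr19:42315891-42316291 inside Crtac1, with 191 and 186 in the WT DP libraries, 197 and 182 in those of WT SP, 194 and 189 in those of KO DP, and 193 and 201 in those of OE SP. Its highest library was 1.10 times its lowest. The widest was chr13:107619629-107620029, 105 kb from a protein-coding gene end, with 201 and 221 in the WT DP libraries, 237 and 233 in those of WT SP, 219 and 199.7 in those of KO DP, and 87.5 and 309 in those of OE SP. Its OE SP libraries lay on opposite sides of all other libraries, and their mean met the rule. A second such region, chr9:31683657-31684057, held 192 to 229 in the 6 other libraries and 89.0 and 293 in OE SP.

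The OE SP libraries differed most. The median absolute log2 difference between the libraries of a group was 0.09 in WT DP, 0.11 in WT SP, 0.15 in KO DP and 0.32 in OE SP. OE SP replicate 2 was above replicate 1 in 1285 of the 1473 (87.2%), against 86.3% of varying distal regions, 94.8% of even gene-end regions and 66% of all regions tested. With the median difference removed the values were 0.09, 0.10, 0.10 and 0.17. Divided by its degrees of freedom, the chi-square between the recovered reads was 1.2, 1.29, 1.31 and 4.78, where 1 is counting error alone. It was 14.9 for OE SP in varying distal regions and 3.81 in even gene-end regions.

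Most regions chosen as even in 1 library of each group did not stay within 1.3 in the other. The rule on replicate 1 alone gave 1300 even regions of 6909 distal regions at the floor. In replicate 2, 296 of them (22.8%) stayed within 1.3, against 11.4% of the 5609 others. Their ratio had a median of 1.46 in replicate 2, against 1.68, and exceeded 2 in 3.54% against 30.3%. Chosen on replicate 2, 293 of 1087 (27%) stayed within 1.3 in replicate 1, against 12.1%, and 10.5% exceeded 2, against 44.9%. The others were those above 1.3 in the choosing libraries, and differences shared by all regions of a library enter each ratio. The contrast is therefore a description and no support for stability.

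Near the threshold, chr6:47788246-47788646 was just inside with 174 and 193 in the WT DP libraries, 228 and 202 in those of WT SP, 176 and 177 in those of KO DP, and 179 and 280 in those of OE SP. Just outside was chr11:58323118-58323518 at a start of Zfp672, with 987 and 1036 in the WT DP libraries, 1274 and 1220 in those of WT SP, 971 and 947 in those of KO DP, and 924 and 1203 in those of OE SP. At the floor, chr11:88550994-88551394 in Msi2 was inside with a lowest group mean of 100.1 (WT SP), and chr15:53128551-53128951 in Ext1 was outside with 99.8 (OE SP).

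Which group was highest depended on the scaling. As deposited, WT SP was highest in 704 even distal regions and KO DP lowest in 625. With median-of-ratios rescaling OE SP was highest in 973, and with rescaling on the 10000 highest regions KO DP was highest in 783 and WT SP lowest in 901. No order of the groups is therefore given. Of the 1473, 1044 (70.9%), 1138 (77.3%), 1040 (70.6%) and 1261 (85.6%) stayed within 1.3 under median-of-ratios, quantile, highest-region and total-read scaling.

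The limma test used the same values as the rule, so its calls describe the choice. At an adjusted p under 0.05 it called 14.3% of all regions for WT SP against WT DP, 3.92% for KO DP against WT DP and 48.5% for OE SP against WT SP. Among the 1473 even distal regions, all of which were tested, it called 0, 0 and 1. At an unadjusted p under 0.05 the counts were 15, 3 and 20. The shares of all regions tested at that threshold were not counted. They are at least the shares called above, as an adjusted p is never below the unadjusted. On recovered reads edgeR called 6, 3 and 196 (0.407%, 0.204% and 13.3%), against 18.3%, 6.40% and 49.2% of all regions tested. DESeq2 called 0, 0 and 10, against 8.40%, 2.05% and 33.5%. These edgeR and DESeq2 calls in OE SP were all higher in OE SP. Other scalings moved the limma count for OE SP to 190 (median-of-ratios), 158 (quantile) and 138 (the 10000 highest regions). These are 12.9%, 10.7% and 9.37% of the even distal regions, against 48.7%, 47.6% and 48.4% of all regions tested. With all libraries the median log2 change was 0.12, -0.03 and -0.07, against 0.11, -0.07 and -0.22 over all regions tested. Without OE SP replicate 1 the median change from WT SP to OE SP was 0.07, against -0.15 over all regions tested. Without OE SP replicate 2 it was -0.22, against -0.29.

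The 1 called was chr3:68493882-68494282 inside Schip1, named after its values were seen. It held 739 and 721 in the WT DP libraries, 876 and 809.9 in those of WT SP, 766 and 648 in those of KO DP, and 640 and 662 in those of OE SP. The log2 change from WT SP to OE SP was -0.37 with a standard error of 0.14 and an adjusted p of 0.047 in limma.

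A missed threshold does not show equality. The 95% confidence interval of a change had a median half-width of 0.39 on the log2 scale. The regions where it lay wholly within 1.3-fold either way numbered 62 for WT SP against WT DP, 108 for KO DP against WT DP and 72 for OE SP against WT SP. These intervals rest on the values that the rule used, so they show the precision of the libraries and are no support for stability.

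Neighbouring regions were not chosen for evenness, but those that met the rule themselves were left out, so the rule enters their shares in part. The 3516 other regions tested with a midpoint within 10 kb of an even distal region were called in 14.2% for WT SP against WT DP, 3.87% for KO DP against WT DP and 47.6% for OE SP against WT SP. The median level of these neighbours was 61.3 normalized reads, against 36.3 over all regions tested. Without a match for level, the shares are close to the 14.3%, 3.92% and 48.5% of all regions tested. For KO DP this depended on having all libraries. With 1 WT DP or KO DP library left out, the share near even distal regions was below that of all regions tested. Few regions were called at all in those fits, so the difference rests on few neighbours. Near varying distal regions the shares were 16.1%, 4.31% and 52.7%, at a median level of 54.6. There the varying distal regions were left out, so the 2 sets of neighbours were filtered in opposite ways. Among the neighbours that were themselves distal the shares were 15.9%, 3.80% and 51.3%, against 16.1%, 3.99% and 52.4% of all distal regions tested.

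**Figure D3:**
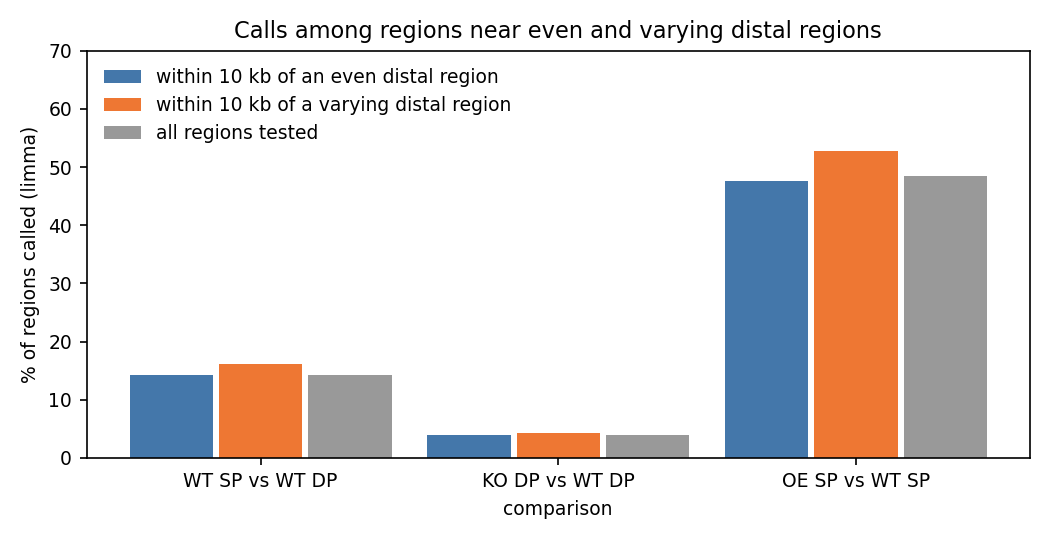
Percentage of regions called by limma at an adjusted p under 0.05 in each comparison. Regions within 10 kb of an even distal region were called in 14.2%, 3.87% and 47.6%, and all regions tested in 14.3%, 3.92% and 48.5%.

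Neighbourhoods differed. Near the most open even distal region at Mef2c and the one at Stag1, no neighbour within 10 kb was called in any comparison. At Zfpm1, which encodes FOG1, a cofactor of GATA factors in blood development, every such neighbour was called in OE SP against WT SP. The even distal region chr8:122294152-122294552 inside the gene held 652 and 621 in the WT DP libraries, 690.1 and 689 in those of WT SP, 676 and 606 in those of KO DP, and 549 and 709.5 in those of OE SP. A neighbour 2099 bp away held 694 and 634 in the WT DP libraries, 349 and 355 in those of WT SP, 824 and 708 in those of KO DP, and 51.8 and 163 in those of OE SP. In OE SP it fell by 1.87 on the log2 scale against WT SP (SE 0.35, adjusted p = 0.000961 in limma). Another, 9569 bp to the other side, held 221 and 233 in the WT DP libraries, 379 and 369.8 in those of WT SP, 134 and 152 in those of KO DP, and 736 and 703 in those of OE SP. From WT DP to WT SP it rose by 0.71 (SE 0.15, limma adjusted p = 0.00932), and from WT SP to OE SP by 0.93 (SE 0.15, limma adjusted p = 0.000351). From WT DP to KO DP it fell by 0.65 (SE 0.15, limma adjusted p = 0.0349). The other neighbours, at 3601 and 9939 bp, fell by 1.05 and 1.10 in OE SP against WT SP (limma adjusted p = 0.00121 and 0.000449). That at 3601 bp also fell by 1.05 from WT DP to WT SP (SE 0.20, limma adjusted p = 0.00609).

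**Figure D4:**
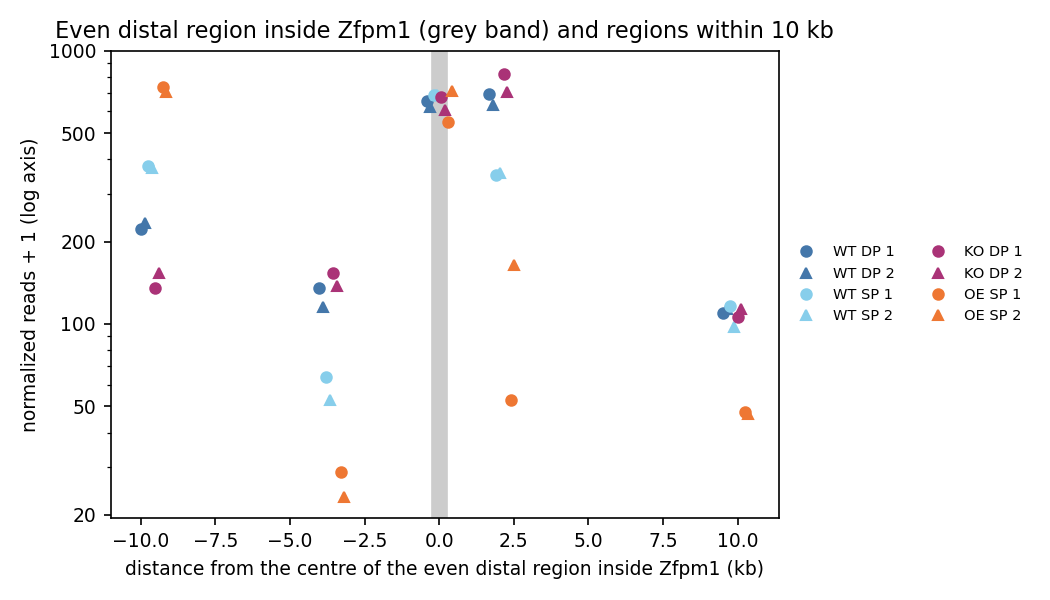
Normalized reads plus 1 (log axis) in each library at the even distal region inside Zfpm1 (grey band) and at the regions within 10 kb, by distance in kb, with libraries set slightly apart for legibility. The even region lies between 549 and 709.5 in the 8 libraries, while the neighbour at 2099 bp falls to 51.8 and 163 in OE SP.

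Near Actb, the gene of beta-actin, an even region 24.5 kb from the gene held 262 and 249.7 in the WT DP libraries, 300.3 and 256 in those of WT SP, 284 and 269.8 in those of KO DP, and 259.7 and 346 in those of OE SP. A neighbour 6060 bp away held 1535 and 1472 in the WT DP libraries, 1589.8 and 1503 in those of WT SP, 1671 and 1625 in those of KO DP, and 531 and 999 in those of OE SP. It fell by 1.08 in OE SP against WT SP (SE 0.22, adjusted p = 0.00171 in limma). A closer neighbour, 3208 bp away, rose by 0.87 (SE 0.17, limma adjusted p = 0.00144). Those at 7983 and 3329 bp fell by 0.60 and 0.51 (limma adjusted p = 0.0195 and 0.0219), and that at 6013 bp was not called.

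Even distal regions were counted at the genes of 9 lists, with each region given to the closest protein-coding gene up to 100 kb away. The lists were chosen with earlier results known and have no test here. Of distal regions at the floor, 18.9% were even overall. The share was 13 of 36 (36.1%) at endothelial genes, 4 of 31 (12.9%) at hematopoietic genes, 7 of 42 (16.7%) at cardiac genes and 0 of 16 at paraxial and streak genes. It was 4 of 17 (23.5%) at pluripotency genes, 1 of 9 (11.1%) at endoderm genes, 5 of 18 (27.8%) at neuroectoderm genes, 2 of 10 (20%) at housekeeping genes and 3 of 10 (30.0%) at chromatin architecture genes. Mef2c, a MADS-box factor of heart and vessel, stands in both the endothelial and the cardiac list and carried 5 of them.

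At Ets1, an ETS factor of endothelium, the more open of 2 even distal regions, chr9:32695769-32696169, held 768 and 720.4 in the WT DP libraries, 917 and 931 in those of WT SP, 772 and 693 in those of KO DP, and 803 and 971 in those of OE SP. At the 26 list genes with an even distal region, limma called 99 (20.1%) of the 493 other regions higher and 174 (35.3%) lower in OE SP, against 16.6% and 31.9% of all regions tested. Of the 39 others at Ets1, limma called 9 higher and 15 lower in OE SP against WT SP. At Runx1, a factor needed for blood stem cells, there was 1 even distal region, and of 65 others 9 were called higher and 37 lower. At Hand1 and Hand2, factors of heart development, 1 even distal region each stood beside 23 and 19 others, of which 16 and 11 were called lower in OE SP and 1 higher at each. At Mef2c it was the other way, with 8 of 21 others called higher and 2 lower.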

How the data were processed

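The deposited table gives 1 value per region and library. The tools named in the submitters' processing notes are DiffBind 3.14.1, MACS2 and Bowtie2, and the build is mm10. Not given in the sources used here are what each did, how values were scaled, any Tn5 shift and whether peaks were called on pooled libraries. The authors' values are a signal, reads per region scaled by a library factor, and in each library 100% of them were whole multiples of a step at a tolerance of 0.01 reads. Recovered reads served only edgeR 4.0.16 and DESeq2 1.42.0 as alternatives. All value columns were matched to a sample, and 0 were left unused.

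In R 4.3.3, limma 3.58.1 was fitted to log2(value + 5) of those 167573 regions whose mean over 8 libraries reached 10, in 1 fit of 4 group means, with 4 residual and 8.15 prior degrees of freedom, Benjamini-Hochberg adjustment and two-sided p-values. Fold changes on this scale understate those of low regions. Gene spans and promoter sequences are RefSeq's for GRCm38.p6, the assembly of mm10. Named regions are the 8 highest, the 5 steadiest, 3 on each side of the ratio and of the floor, the 3 with OE SP libraries furthest apart, the 5 highest at noncoding genes, the 3 furthest from genes and the highest of each list. 1 of them is not reported here. The members, lists, rule and motifs were chosen with earlier results of these data known. Same-numbered libraries showed little shared deviation (correlations -0.00382 to 0.056 over regions), and replicate numbers were not used as pairs. Such correlations cannot exclude a shared culture or batch. The library names of KO DP also carry other numbers than the replicate numbers used here. Python 3.11.15, pandas 2.3.3, numpy 2.4.6 and scipy 1.17.1 were used.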

Additional observations from a re-analysis of the deposited data

How the results depend on the processing

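The set of even distal regions depended on its rule and on the scaling. The count of 1473 became 581 at a ratio of 1.2, 3375 at 1.5, 3038 at a floor of 50, 616 at a floor of 200, 253 beyond 50 kb and 192 with the ratio and floor over 8 libraries. It became 2221 with rescaling on the 10000 highest regions, which shared 1023 regions (69.5% of the 1473, 46.1% of the 2221). Leaving out 1 library gave 1165 to 1683. With a floor of 200, 23.7% held a start. With 1 mismatch, 12.1% of regions with a start held a CTCF core. Leaving out 1 library, the share of 12.4% with a start was 10.8% to 14.1%, the share of 3.85% with an exact core 2.65% to 4.11%, and the share inside gene spans 51.8% to 53.4%. The median replicate differences did not move by more than their spread.

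For WT SP against WT DP the 0 calls became 296 (20.1%) with the compared groups alone, 4 with median-of-ratios, 18 with quantile normalization, 45 with the 10000 highest regions and 6 in edgeR. In these settings 37.8%, 15.4%, 17.4%, 17.3% and 18.3% of all regions tested were called. For KO DP against WT DP the 0 calls became 52 (3.53%), 2, 20, 28 and 3 in the same order. All regions tested were called in 22.0%, 4.88%, 6.85%, 6.01% and 6.40%. For OE SP against WT SP the 1 call became 0, 190, 158, 138 and 196, and 10 in DESeq2. Of all regions tested 39.0%, 48.7%, 47.6%, 48.4% and 49.2% were called, and 33.5% in DESeq2. With replicate number as a block, though the labels give no pairing, the calls were 0, 0 and 0. Of all regions tested 14.1%, 3.48% and 47.9% were called. A fit without 1 library leaves 1 library in a group, and its calls over all regions tested changed too. They were fewer without a WT or KO DP library and more without an OE SP library. Counts of called even distal regions from such fits therefore show neither evenness nor its loss. Leaving out 1 library gave 0 to 0, 0 to 0 and 0 to 520 calls. The share of neighbours called, divided by that of all regions tested, became 1.11 for WT SP and 0.933 for OE SP with the compared groups alone, and 0.944 and 0.945 for OE SP with median-of-ratios and edgeR. Leaving out 1 library it was 0.889 to 0.973, 0.480 to 0.574 and 0.945 to 1.04 in the order of the comparisons. The cause was not tested. Of 528 recomputed ratios of 44 named regions, 92 moved by more than the replicate SD. At a median of 145 to 236 reads per region and 2 libraries per group, changes under 1.3-fold were mostly not resolved.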
